A study of Rattus norvegicus with 12 samples.

Results

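The 9 genes described here are Tlr3, Ifih1, Irf1, Irf7, Stat2, Mx1, Mx2, Isg15 and Oas1a. They were chosen by symbol from the annotation of a rat expression array that carries 26456 gene symbols. They are measured by 11 probes, 2 each for Tlr3 and Irf1 and 1 for each of the other genes. All 11 were well above background on each of the 12 arrays, so that no member was lost to the filter on dim probes. Where a gene has 2 probes, its value is that of the brighter one.

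The question was whether these genes differ in the mammary gland of rats whose mothers received little protein during pregnancy, at the beginning and the end of pubertal duct growth. Wistar dams received isocaloric diets throughout pregnancy with 17.0% protein (normal protein, NP) or 8.8% protein (low protein, LP) and standard chow while nursing. Female offspring suckled until weaning at day 21 and were given the same chow from then on. Total RNA of the lumbar mammary gland, cleared of visible lymph nodes, was hybridised at day 21 (d21) and day 28 (d28) of life, with 1 array per rat and 3 rats in each of the groups NP d21, LP d21, NP d28 and LP d28. The d21 and d28 arrays come from different rats. Rats are named as in the labels (NP 4a, 5a and 6a and LP 4a, 6a and 7c at d21; NP 4f, 5f and 6f and LP 4f, 6f and 7f at d28).

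Tlr3 encodes an endosomal receptor of double-stranded RNA, and Ifih1 encodes MDA5, a cytosolic sensor of the same ligand. Their activation leads to secretion of type I interferon, whose receptor signals through a complex with STAT2 and IRF9 that binds the interferon-stimulated response element (ISRE) in the promoters of its target genes. Irf7 and Irf1 encode transcription factors of the response and are themselves induced by interferons, and Mx1, Mx2, Isg15 and Oas1a belong to its antiviral effectors. In the mammary gland such genes can be expressed by epithelium, fat cells, vessels and immune cells.

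Values are log2 signals relative to the 75th percentile of the gene spots of the array, so that 1 unit is a 2-fold difference. The 75th percentile itself lay between 1451.4 and 2369.6 in scanner units, and 74.8% to 79.6% of gene spots were well above background. The rat LP 6a stood apart, with a median correlation of 0.960 with the other arrays against 0.974 to 0.989 elsewhere. Its leukocyte gene Ptprc was at 0.397 (linear relative signal), where the other d21 arrays had 4.18 to 6.00. The summed relative signal of 4 skeletal muscle genes was 37.4 in LP 6a and 27.3 in NP 6a. The other d21 arrays had 0.593 to 6.47. The slides split by age, with the d21 rats on one and the d28 rats on the other, and effects of the slide, of weaning and of age cannot be told apart. Labelled tissue markers were present, since all 7 epithelial and all 5 fat cell genes listed were well above background on all 12 arrays. In whole tissue, fewer cells of a type and less RNA per cell cannot be told apart.

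Probe sequences are shown for 3 genes with the widest range of values at d28, so that it is clear which stretch of each transcript was measured. The Irf7 probe lies at chr1:201456889-201456948 on the minus strand of the rat build rn4, the Isg15 probe at chr5:173034674-173034733 on the minus strand and the Oas1a probe at chr12:36815068-36815127 on the plus strand. All letters are lower case because no part is singled out.
Irf7: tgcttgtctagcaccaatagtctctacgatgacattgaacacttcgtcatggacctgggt
Isg15: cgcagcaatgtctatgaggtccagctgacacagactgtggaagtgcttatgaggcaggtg
Oas1a: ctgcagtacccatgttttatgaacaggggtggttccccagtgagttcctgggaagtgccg
Rat Oas1a has close relatives, among them Oas1b, Oas1i and Oas1k, and whether their transcripts bind its probe was not tested.

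Promoter sequence was taken from RefSeq windows on the build GRCr8 that run from 250 bases before to 50 bases after the start of a gene. Such windows were at hand for 7 of the 9 genes, namely Tlr3, Ifih1, Irf1, Irf7, Stat2, Mx1 and Oas1a. They were searched on both strands for the core of the ISRE, written GAAANNGAAA or on the other strand TTTCNNTTTC. The core was in the windows of Ifih1, Irf7 and Oas1a and in 3.92% of all 33469 windows of 300 bases. Among 48 windows of other interferon-induced effector genes, 31 held it (64.6%). The palindromic interferon-gamma activated site, TTCNNNGAA, was in the windows of Irf1 and Oas1a and in 8.87% of all windows. The 250 bases before the start are shown for the 3 genes with an ISRE core, in capitals, and for Tlr3, whose window holds neither set of letters. In Oas1a, 2 overlapping cores begin 41 and 35 bases before the start.
Ifih1, chr3:67683969-67684218, minus strand: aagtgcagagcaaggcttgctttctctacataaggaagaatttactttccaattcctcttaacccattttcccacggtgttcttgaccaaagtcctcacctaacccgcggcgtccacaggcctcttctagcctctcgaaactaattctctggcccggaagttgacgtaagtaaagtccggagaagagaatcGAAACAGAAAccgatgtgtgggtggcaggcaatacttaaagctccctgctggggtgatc
Irf7, chr1:205800024-205800273, minus strand: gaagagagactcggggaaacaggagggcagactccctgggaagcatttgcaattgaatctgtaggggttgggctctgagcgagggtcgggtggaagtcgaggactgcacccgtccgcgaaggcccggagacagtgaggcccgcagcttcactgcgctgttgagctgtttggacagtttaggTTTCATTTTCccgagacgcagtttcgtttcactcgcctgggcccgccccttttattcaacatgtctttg
Oas1a, chr12:41330216-41330465, plus strand: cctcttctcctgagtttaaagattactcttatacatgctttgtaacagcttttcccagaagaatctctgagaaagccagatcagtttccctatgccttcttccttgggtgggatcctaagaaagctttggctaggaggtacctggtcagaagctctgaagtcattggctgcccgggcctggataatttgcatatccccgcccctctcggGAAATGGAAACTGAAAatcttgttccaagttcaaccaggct
Tlr3, chr16:53554666-53554915, plus strand: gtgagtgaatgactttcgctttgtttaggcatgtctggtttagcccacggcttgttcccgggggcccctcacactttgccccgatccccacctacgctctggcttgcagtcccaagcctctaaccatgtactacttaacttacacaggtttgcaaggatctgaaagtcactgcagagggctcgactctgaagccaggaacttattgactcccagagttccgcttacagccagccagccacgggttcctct

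Tlr3 was the 1 member with an unadjusted p under 0.05 between the diets, on either day, and it was higher in LP rats. At d21 its values were -2.20, -1.76 and -2.14 in NP 4a, 5a and 6a and -0.87, -1.30 and -1.05 in LP 4a, 6a and 7c. Every LP array lay above every NP array. The difference was 0.96 on the log2 scale (SE 0.38), a 1.94-fold higher signal, with an unadjusted p of 0.0305 and an adjusted p of 0.861 in limma, and it did not pass. Without LP 6a it was 1.07 (SE 0.44, unadjusted p of 0.0359 in limma). Without NP 4a, NP 6a, LP 4a or LP 7c, the difference of Tlr3 stayed between 0.86 and 0.95 but its unadjusted p in limma was 0.0638 to 0.0844. These fits pool the spread over the 4 groups. The standard deviation (SD) of Tlr3 was 0.95 in LP d28 and 0.22 to 0.23 in the other groups. With the 6 arrays of d21 alone the SE was 0.17 (unadjusted p of 0.00161 in limma), and 0 members passed the adjusted test. With those of d28 alone the lowest unadjusted p of a member was 0.044 in limma.

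At d28 the values of Tlr3 were -2.04, -1.62 and -1.94 in NP 4f, 5f and 6f and -0.50, -1.72 and 0.14 in LP 4f, 6f and 7f. LP 4f and LP 7f were above all NP arrays, and LP 6f lay among the NP arrays. The difference was 1.17 (SE 0.38), a 2.26-fold higher signal, with an unadjusted p of 0.0116 and an adjusted p of 0.581 in limma. The value depended on single LP rats, since it was 1.69 without LP 6f (unadjusted p of 4.8e-05) and 0.76 without LP 7f (unadjusted p of 0.0438). The second Tlr3 probe gave 0.87 (SE 0.35) at d21 and 1.03 (SE 0.35) at d28, with the same arrays high. As the mean of both days, a comparison added after the values were seen, Tlr3 was higher in LP rats by 1.07 (SE 0.27, unadjusted p of 0.0027, adjusted p of 0.418 in limma).

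These counts are to be read against the background of the array. An unadjusted p under 0.05 between the diets was reached by 4.36% of 23209 probes at d21 and 8.07% at d28, and by 11.9% for the mean of both days, against 1 of 9 members in each case. The diets were fully separated for 11.5% of probes at d21 and 16.8% at d28, against 2 members at d21 (Tlr3 and Irf1) and 0 at d28. No probe of the array reached an adjusted p under 0.05 between the diets.

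Genes of mammary epithelium were also higher in LP rats. The summed relative signal of the 7 epithelial genes listed was 13.3, 25.4 and 13.0 in NP and 29.5, 48.1 and 17.1 in LP rats at d21, and 10.0, 23.4 and 23.2 in NP and 28.1, 28.9 and 26.3 in LP rats at d28. All 7 of these genes were above 0 in the comparison of LP with NP on both days, with medians of 0.81 and 0.82, and 0 of 7 had an unadjusted p under 0.05 on a single day. In the mean of both days, 3 of the 7 had an unadjusted p under 0.05 in limma, all higher in LP rats, with a median of 0.82. Of all 23209 probes, 1005 did so with a higher signal and 11.9% in either direction. In the adjusted test 0 of the 7 genes passed. LP 6f, the LP array of d28 with Tlr3 at the NP level, had the highest epithelial sum of that day. The part of the epithelium in the difference of Tlr3 was not tested.

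Irf1, the transcription factor of the group that also answers to interferon-gamma, was lower in LP rats at d21. Its values were 2.79, 2.59 and 2.66 in NP 4a, 5a and 6a and 2.48, 1.82 and 2.38 in LP 4a, 6a and 7c. All 3 LP values were under the lowest NP value, and LP 6a had the lowest. The difference was -0.45 (SE 0.24, unadjusted p of 0.0882, adjusted p of 0.861 in limma) and -0.25 without LP 6a (SE 0.23). The second probe, of 1 spot per array, likewise separated the diets, with a difference of -0.47 (SE 0.28). At d28 Irf1 was 3.31, 3.19 and 2.74 in NP rats and 2.75, 2.42 and 3.21 in LP rats, which overlapped (difference -0.29, SE 0.24).

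Lymphocyte genes are given beside Irf1. Of 8 T and NK cell genes, 0 had a positive LP minus NP difference at d21 and 1 (Nkg7) at d28. Of 5 B cell genes it was 0 on both days. But 0 of these 13 had an unadjusted p under 0.05 in limma on either day. In the mean of both days 1 T and NK cell gene did so, lower in LP rats, against 11.9% of all probes in either direction. The summed signal of 8 T and NK cell genes was 16.1 to 17.8 in NP rats and 15.7, 0.370 and 13.2 in LP 4a, 6a and 7c at d21. At d28 it was 16.8 to 22.2 in NP rats and 10.7 to 15.7 in LP rats, and the sum of 5 B cell genes followed the same order (6.26 to 7.50 against 2.76 to 5.55). Their part in the differences of Irf1 and of the other members was not tested.

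The other 7 members overlapped between the diets on both days. At d21 their differences ran from -1.03 for Mx1 to 0.04 for Oas1a, and at d28 from 0.17 for Ifih1 to 1.28 for Oas1a. The 95% intervals were wide. For Isg15 the interval was -3.23 to 1.62 at d21 and -1.41 to 3.45 at d28, so that differences of several fold in either direction lie within it. Both rest on a spread pooled over the 4 groups. The SD of Isg15 was 0.94 and 0.50 in NP and LP rats at d21, and 1.74 and 2.15 at d28. The d21 interval therefore carries the wider spread of d28. Mx1 at d21 rested on LP 6a, whose value was -0.38 while the other d21 arrays had 1.38 to 2.39. Without that rat the difference of Mx1 was -0.41 (SE 0.70), and that of Oas1a turned to -0.34 (SE 0.95).

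**Figure D1:**
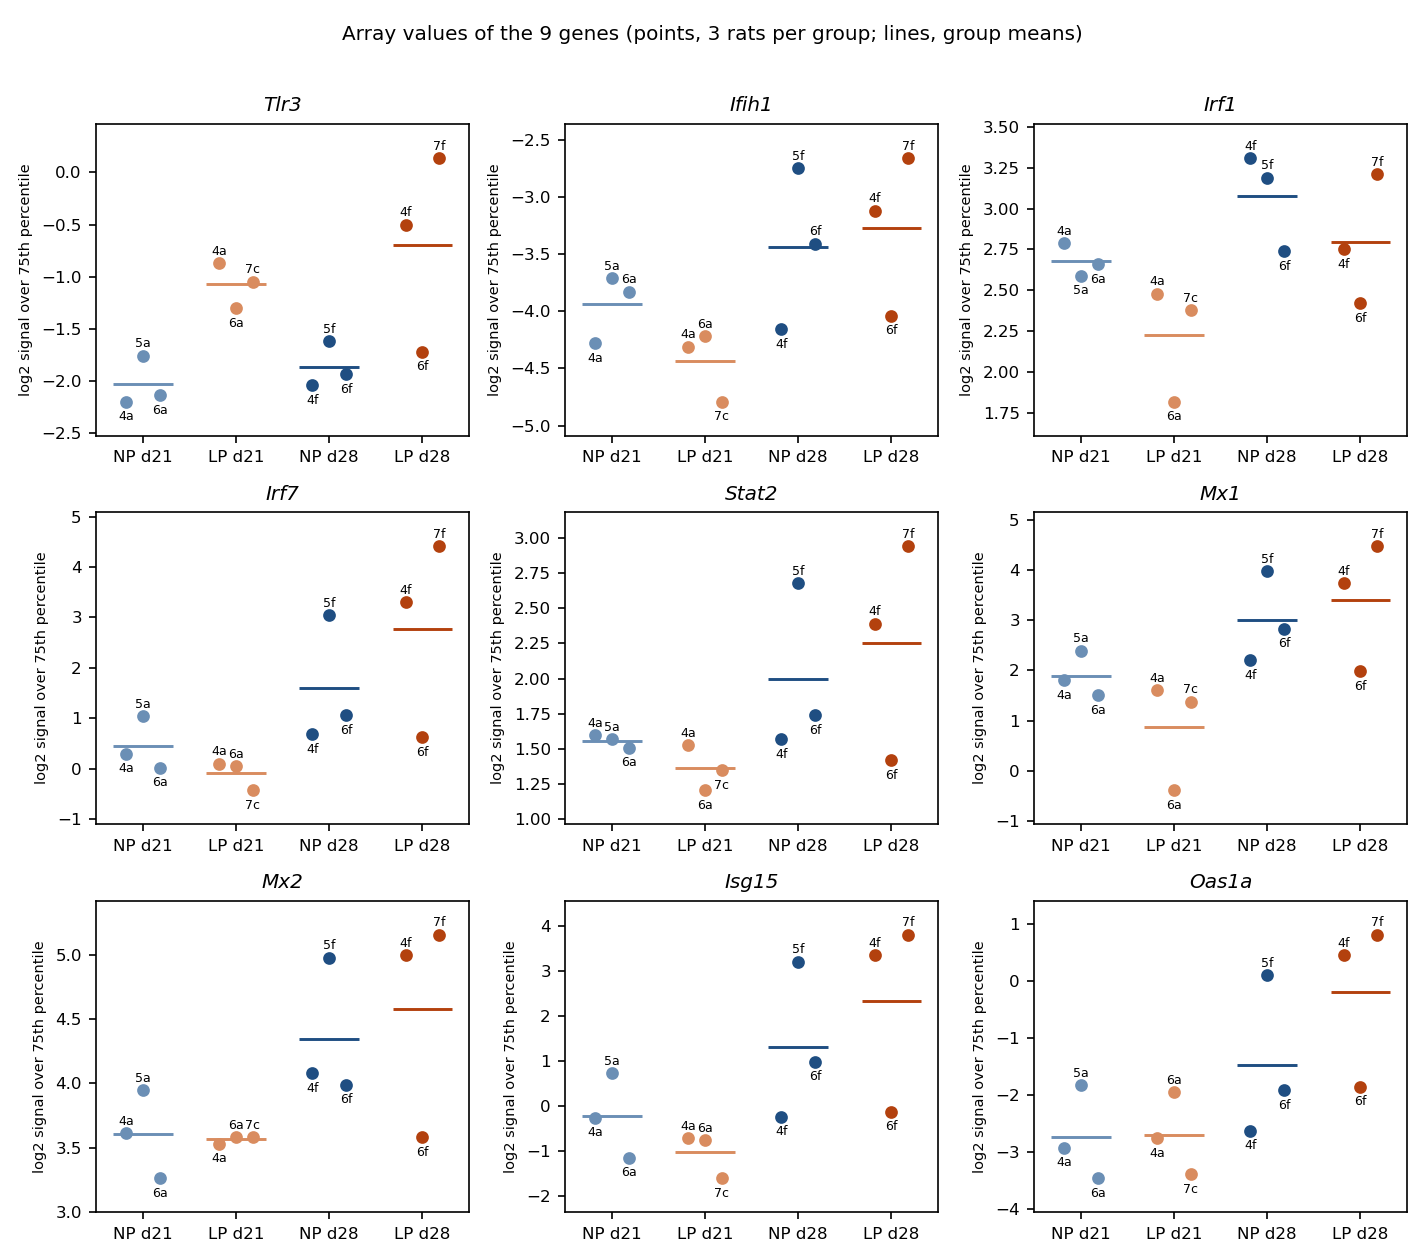
Log2 signal over the 75th percentile of the array (vertical axes, a separate scale per gene) of the 9 genes in the 4 groups, with a point per rat and a line at the group mean. LP rats lie above NP rats for Tlr3 at d21, and at d28 NP 5f, LP 4f and LP 7f stand above the other 3 rats for Irf7, Isg15 and Oas1a.

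Between d21 and d28, 8 of the 9 genes were higher at the later day with an unadjusted p under 0.05, in the mean of both diets, and Tlr3 was not among them. In all probes the share was 9.89% for a higher signal at d28 and 19.2% for either direction. At an adjusted p under 0.05, 1.81% of probes were called and 0 of the 9 members, whose lowest adjusted p was 0.101 (Mx1). The median difference was 0.88 over the members and 0.01 over all probes tested. The 8 genes are described below in the order sensor, transcription factors and effectors.

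Ifih1, the cytosolic sensor, was -4.28, -3.71 and -3.83 in NP rats and -4.31, -4.22 and -4.79 in LP rats at d21. At d28 it was -4.16, -2.75 and -3.41 in NP 4f, 5f and 6f and -3.12, -4.04 and -2.66 in LP 4f, 6f and 7f. Both days overlapped, with NP 5f and LP 7f highest. The day difference was 0.83 (SE 0.28, unadjusted p of 0.0151, adjusted p of 0.158 in limma). For Tlr3 the same difference was 0.27 (SE 0.27, 95% interval -0.33 to 0.87, unadjusted p of 0.339 in limma). It was 0.53 without LP 6f (SE 0.16, unadjusted p of 0.00808 in limma), so that 9 of 9 members then passed that threshold (16.6% of all probes), and 0.06 without LP 7f.

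Irf7, which sustains the response as an interferon-induced activator of interferon genes, was 0.30, 1.04 and 0.02 in NP rats and 0.10, 0.05 and -0.42 in LP rats at d21. At d28 it was 0.68, 3.05 and 1.06 in NP 4f, 5f and 6f and 3.30, 0.62 and 4.41 in LP 4f, 6f and 7f. High values were found in 1 NP rat and 2 LP rats, and the other 3 rats of d28 reached the range of d21 or lay just above it. The day difference was 2.01 (SE 0.63), a 4.02-fold higher signal, with an unadjusted p of 0.00936 and an adjusted p of 0.130 in limma.

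Stat2, part of the interferon signalling complex, varied little at d21, from 1.21 to 1.60 over the 6 rats. At d28 it was 1.57, 2.68 and 1.74 in NP rats and 2.39, 1.42 and 2.94 in LP rats. The same 3 rats were high. Its day difference was 0.66 (SE 0.26, unadjusted p of 0.0299, adjusted p of 0.210 in limma). Without NP 5f or LP 7f it was 0.49, with unadjusted p values of 0.0686 and 0.0677 in limma. Of the 12 fits that each left out a single array, 6 kept an unadjusted p under 0.05 for Stat2.

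Irf1 differed by 0.48 between the days (SE 0.17, unadjusted p of 0.0166, adjusted p of 0.164 in limma) with its brighter probe. Its second probe gave 0.20 (SE 0.20, unadjusted p of 0.345), so that the 2 probes disagree on the threshold.

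Among the effectors, Isg15, a ubiquitin-like protein that is attached to other proteins, had the widest range. At d21 it was -0.26, 0.73 and -1.15 in NP rats and -0.72, -0.77 and -1.61 in LP rats. At d28 it was -0.24, 3.20 and 0.98 in NP 4f, 5f and 6f and 3.34, -0.13 and 3.80 in LP 4f, 6f and 7f. The rats NP 4f and LP 6f stayed within the d21 range. The day difference was 2.46 (SE 0.77), a 5.50-fold higher signal, with an unadjusted p of 0.00967 and an adjusted p of 0.132 in limma.

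Oas1a, which makes the oligoadenylates that activate RNase L, was -2.92, -1.82 and -3.46 in NP rats and -2.75, -1.95 and -3.39 in LP rats at d21. At d28 it was -2.62, 0.11 and -1.91 in NP 4f, 5f and 6f and 0.46, -1.85 and 0.82 in LP 4f, 6f and 7f. Again 3 rats stood above the range of d21 and 3 did not. The day difference was 1.88 (SE 0.60, unadjusted p of 0.0107, adjusted p of 0.137 in limma).

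Mx1 and Mx2 encode dynamin-like GTPases that block viruses. Mx1 at d28 was 2.20, 3.97 and 2.83 in NP rats and 3.73, 1.99 and 4.47 in LP rats, and its day difference was 1.82 (SE 0.51, unadjusted p of 0.0051 in limma). Mx2 ranged from 3.26 to 3.95 at d21, and at d28 it was 4.08, 4.98 and 3.99 in NP rats and 5.00, 3.58 and 5.16 in LP rats. The day difference of Mx2 was 0.88 (SE 0.28, unadjusted p of 0.0116, adjusted p of 0.141 in limma). Both genes were highest in LP 7f.

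**Figure D2:**
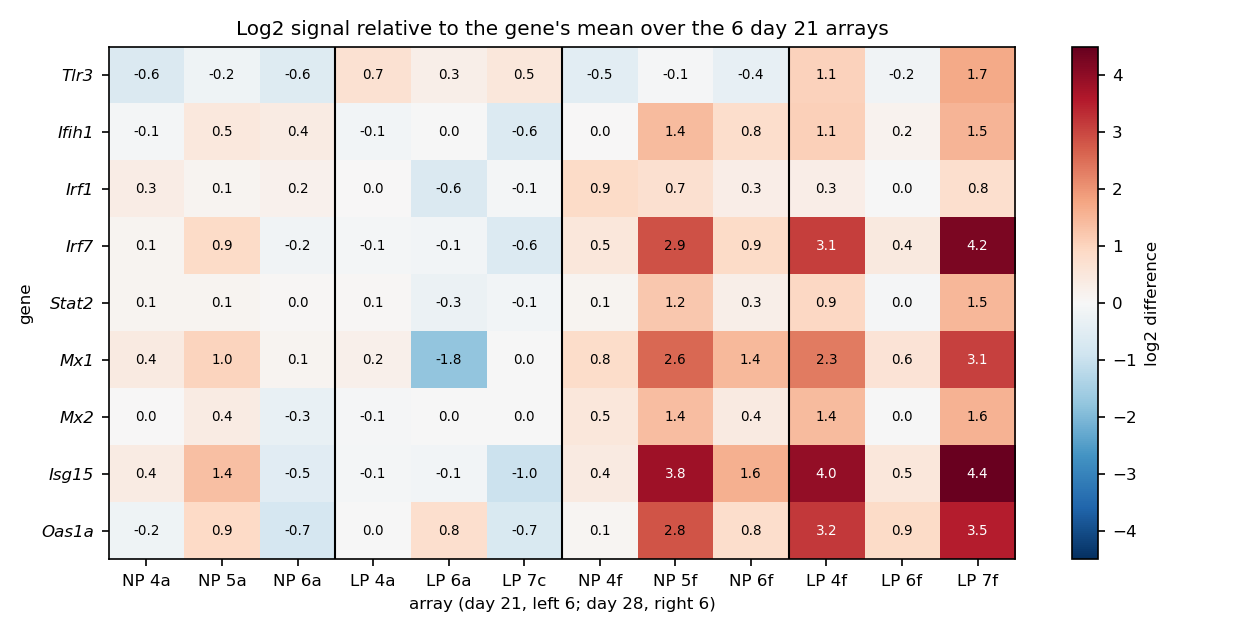
Log2 difference of each array (columns, grouped as NP and LP at d21 and NP and LP at d28) from the gene's mean over the 6 d21 arrays (rows, the 9 genes; red higher, blue lower). At d28 the columns of NP 5f, LP 4f and LP 7f are red for 8 or all 9 genes, and those of NP 4f and LP 6f are near 0 for most.

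The spread between rats of d28 was shared by the members. NP 5f, LP 4f and LP 7f were the 3 highest of the 6 d28 arrays for 8 of 9 genes, the exception being Irf1, for which LP 7f, NP 4f and NP 5f were highest. LP 7f was the highest array for 8 of 9. The step from the third to the fourth array was 4.67-fold for Isg15, 3.98-fold for Irf7 and 3.91-fold for Oas1a, 1.87-fold for Mx1, 1.86-fold for Mx2, 1.58-fold for Stat2, 1.22-fold for Ifih1 and 1.07-fold for Tlr3. The whole range over d28 arrays was 16.4-fold for Isg15, 13.8-fold for Irf7 and 10.9-fold for Oas1a, against 5.03-fold, 2.75-fold and 3.12-fold at d21. For Mx1 the range was 6.87-fold at d21, through LP 6a, and 5.58-fold at d28. The high arrays hold both diets, and they were read from the values, so that no test of them is given.

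The diet comparison at d28 therefore turned on single rats for these genes. Without LP 6f, 5 of 9 members had an unadjusted p under 0.05 in limma, all higher in LP rats, where 8.16% of all probes did so in either direction and 2.65% with a higher signal. These were Tlr3, Irf7 with 2.26 (SE 0.66), Isg15 with 2.26 (SE 0.89), Oas1a with 2.11 (SE 0.78) and Mx2 with 0.73 (SE 0.29). Without NP 5f there were 2 (Tlr3 and Oas1a), against 7.75% of all probes. Without LP 7f there was 1 (Tlr3), against 3.80% of all probes, while Stat2, Mx1, Mx2 and Ifih1 turned below 0. The change of the diet difference from d21 to d28 was above 0 for all 9 members, from 0.16 for Irf1 to 1.83 for Isg15, and 0 of 9 had an unadjusted p under 0.05 in limma, against 2.26% of all probes. Without LP 6f this count was 4 of 9, against 2.74% of all probes.

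**Figure D3:**
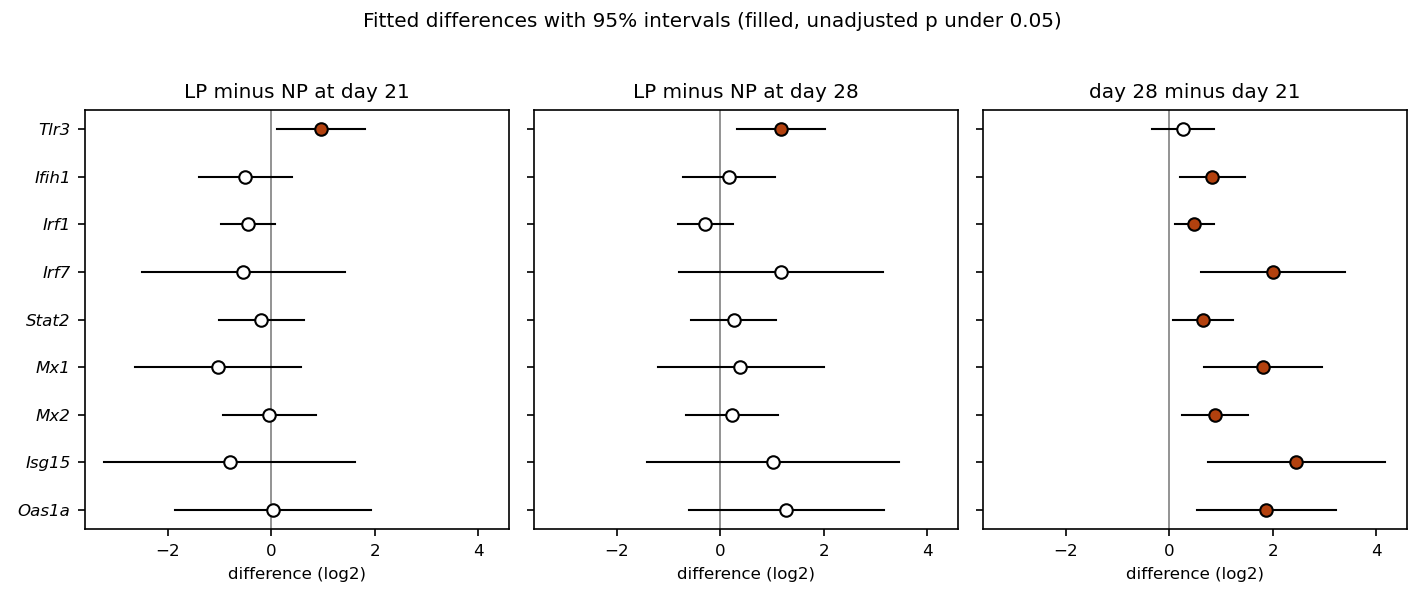
Fitted log2 differences of the 9 genes (points, filled where the unadjusted p is under 0.05 in limma) with 95% intervals (lines) for LP minus NP at d21, LP minus NP at d28 and d28 minus d21. Tlr3 is the 1 filled gene in both diet panels, and in the day panel all but Tlr3 are filled.

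Technical measures and sums of other cell types are given for the same 3 rats. The 75th percentile signal was 1451.4, 2030.9 and 2057.4 in NP 5f, LP 4f and LP 7f and 2079.4, 1988.3 and 2065.7 in NP 4f, NP 6f and LP 6f, so that NP 5f alone was dimmer, and NP 5f also had the most outlier spots (766). The T and NK cell sum was 21.5, 15.7 and 10.7 in the first 3 rats and 22.2, 16.8 and 14.5 in the others. The sum of 8 macrophage genes was 99.4, 69.2 and 86.1 against 73.3, 77.5 and 79.6. That of 4 skeletal muscle genes was 2.57, 0.532 and 0.826 against 1.46, 3.38 and 27.8, so that LP 6f stood far above the others. The sum of the 5 plasmacytoid dendritic cell genes listed was highest in these rats, with 14.8, 15.8 and 18.0 against 12.8, 12.3 and 11.4. Of the 5 genes, 1 (Bst2) is itself induced by interferon, and the other 4 summed to 7.51, 5.52 and 4.45 in the first 3 rats and to 8.53, 6.29 and 5.79 in the others. Their part in the high values was not tested.

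Across all 12 arrays, the 7 members other than Tlr3 and Irf1 moved together. Their 21 pairs had Pearson correlations of 0.772 to 0.983, with a median of 0.925, over arrays that share 2 slides and the step between the days. Irf1 correlated with these 7 at 0.404 to 0.794. With each array set against the mean of its group, the 21 pairs had 0.621 to 0.971 and Irf1 had 0.199 to 0.686. For Tlr3 the 8 pairs ran from 0.0242 to 0.623, and from 0.667 to 0.908 once each array was set against the mean of its group. These are descriptions over 12 arrays with no test.

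The non-member genes most like Tlr3 and Irf7 were sought among 19966 probes well above background on all arrays. For Irf7 these were Herc6 (r of 0.990), Ifi44 (0.986) and Oasl2 (0.985), all in the lists of interferon-induced genes, and 2 transcripts that the array names by an identifier alone (0.993 and 0.988). For Tlr3 they were Sdf2 (0.853), Ttc25 (0.845), Crip3 (0.842), Poldip2 (0.835) and Aacs (0.827), and 0 of the 5 is in a pathway list. Once each array was set against the mean of its group, these 5 correlated with Tlr3 at 0.583 to 0.799. The other 8 members then did so at 0.667 to 0.908.

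The rest of the pathway was followed through 110 listed genes, of which 95 were found on the array and 91 tested. At d21, 1 was higher and 3 were lower in LP rats with an unadjusted p under 0.05, a count near the 4.36% of all probes, and 0 passed the adjusted test, with a median of -0.25 and 17 of 91 above 0, against a median of 0.01 over all probes. The 3 lower genes were Irf5 by -0.71 (SE 0.26), a transcription factor of interferon and cytokine genes, the restriction factor Trim5 by -0.51 (SE 0.20) and Nfkb1, a subunit of NF-κB, by -0.36 (SE 0.15). In LP 6a Irf5 was at -1.55 and Trim5 at -0.01 where the other d21 arrays had -0.49 to 0.05 and 0.63 to 1.01. Without LP 6a the count fell from 4 of 91 to 1, against 2.08% of all probes in that fit. Ptprc and the lymphocyte genes were also lowest in LP 6a, and their part was not tested.

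The higher gene at d21 was Ifnk, which encodes the epithelial interferon kappa. None of the NP arrays had it well above background, whereas 2 of 3 LP arrays of each day did. Ifnk thus met the filter on dim probes through LP arrays alone. Its place in the d21 count is therefore no support for a diet difference. Against an upper bound of the NP signal, the mean LP signal was 2.19-fold higher at d21 and 1.69-fold at d28. The fit of the measured signals gave adjusted p values of 0.861 and 0.581 in limma. For this bound each NP array took the dimmest signal that passed as well above background there, unless the Ifnk probe itself was brighter. The LP mean was not bounded. It includes LP 7c (-8.12) at d21 and LP 7f (-6.82) at d28, which were not well above background. These folds are therefore not lower limits, and LP 7c lay below NP 5a (-7.82). Of the other ligand genes, Ifna4 was well above background on all 12 arrays, with day and diet differences of at most 0.22 in size, and Ifna1 on 3. Ifnb1 and Ifng, which encode interferon beta and gamma, were well above background on 1 array each, and in both cases this was LP 7f, the array with the highest members. They were named after their values were seen.

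At d28, 1 of the 91 genes was higher and 2 were lower in LP rats with an unadjusted p under 0.05, where 8.07% of all probes did so, and 0 passed the adjusted test, with a median of 0.18 and 61 above 0, against a median of -0.05 over all probes. The higher gene was Ifitm3, an inhibitor of virus entry, by 0.56 (SE 0.22). The lower ones were Irak3, an inhibitor of Toll-like receptor signalling, by -0.38 (SE 0.14) and Socs3, an inhibitor of cytokine signalling, by -0.40 (SE 0.17). Leaving out NP 5f or LP 6f gave 16 and 23 genes, against 7.75% and 8.16% of all probes, and leaving out LP 7f gave 1, against 3.80%.

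Between the days, 50 of the 91 genes were higher at d28 and 1 lower with an unadjusted p under 0.05, and 0 passed the adjusted test, with a median of 0.54, where 9.89% of all probes were higher and 19.2% differed in either direction. Of the induced effectors, 39 of 50 were higher at an unadjusted p under 0.05, with a median of 0.81 and all 50 above 0. Among the others it was 6 of 15 sensors and adaptors, 3 higher and 1 lower of 11 transcription factors, 2 of 6 negative regulators, 0 of 6 receptors and kinases and 0 of 3 ligands. Ifi27l2b had the lowest p, with 1.46 (SE 0.32, adjusted p of 0.0538 in limma), and was 5.30, 5.52 and 6.05 in NP 5f, LP 4f and LP 7f and 4.10 to 4.43 in the other rats of d28. The chemokine gene Cxcl9 differed by 1.48 (SE 0.36), Rtp4 by 1.97 (SE 0.51), Ifi44 by 1.17 (SE 0.31), Ifi47 by 1.13 (SE 0.30), Oas3 by 0.95 (SE 0.25), Sp100 by 0.70 (SE 0.17) and Oas1b by 0.33 (SE 0.08). Without NP 5f or without LP 7f, 37 of the 91 genes had an unadjusted p under 0.05, against 17.3% of all probes in each case.

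**Figure D4:**
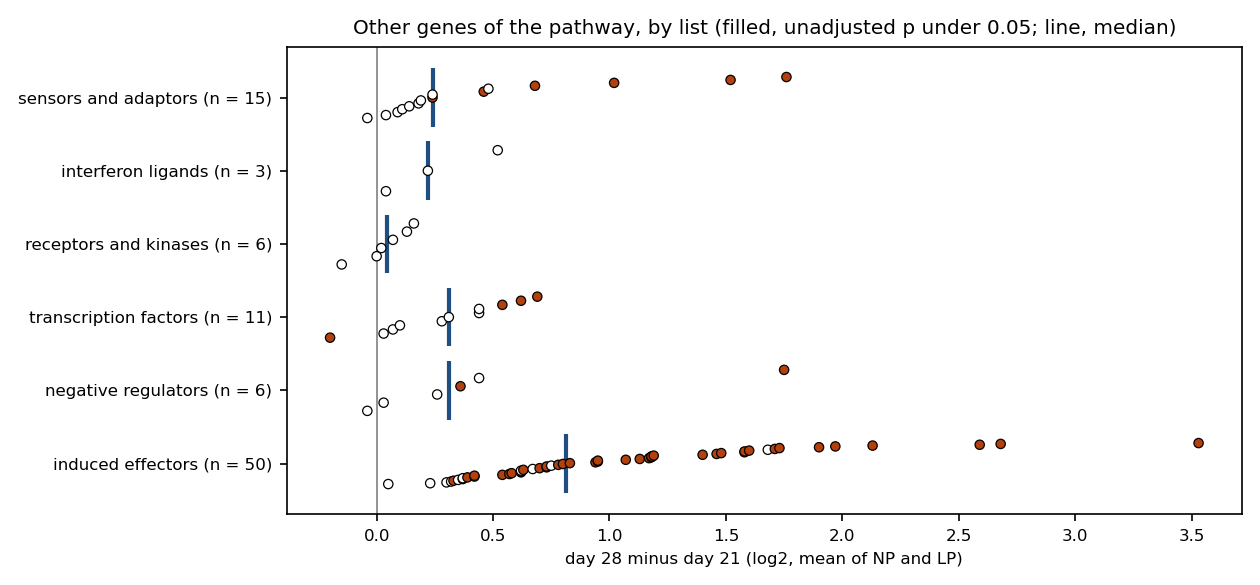
Day 28 minus day 21 differences (horizontal axis, log2, mean of NP and LP) of the 91 other genes of the pathway, grouped by list, with a point per gene (filled where the unadjusted p is under 0.05 in limma) and a vertical line at the list's median. All 50 induced effectors lie above 0, and the receptors and kinases lie around 0.

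The 50 effectors divided the d28 rats in the same way as the members. Their median log2 signal, relative to the mean of the d21 arrays, was 1.36, 1.37 and 1.84 in NP 5f, LP 4f and LP 7f, and 0.36, 0.36 and 0.23 in NP 4f, NP 6f and LP 6f. At d21 it was 0.12, 0.35 and -0.08 in NP rats and 0.02, -0.14 and -0.21 in LP rats. In each of the 3 rats with high values at least 49 of 50 effectors lay above their d21 mean, and 40 to 46 did so in the other 3 rats of d28. Among all 91 pathway genes, NP 5f was one of the 3 highest d28 arrays for 81, LP 7f for 71 and LP 4f for 63, and NP 4f, NP 6f and LP 6f for 32, 13 and 13.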

How the data were processed

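The deposited scanner files were made by the authors with Agilent Feature Extraction 10.7.3.1, and their processed intensity is corrected for background but not normalised between arrays, with probes placed on rn4. A second deposited table holds ratio values, in which the authors divided the processed signal by a constant per array (largest relative deviation from the scanner files 6.56e-05), and it served as an alternative. Control spots and outlier spots were left out, log2 of the processed intensity was set relative to the array's 75th percentile, and the spots of a probe were averaged. Probes well above background (at least 0.5 of their spots) on at least 3 of 12 arrays were tested, 23209 of 30367, with limma 3.58.1 in R 4.3.3 and the package data.table, version 1.17.8. A fit over the 4 groups gave the 5 comparisons, and Benjamini-Hochberg adjusted p values span all tested probes, with a call at 0.05. The fit was run on simulated data in which each probe had the same spread in all groups. That run does not cover the unequal spread between groups seen for Tlr3 and Isg15. No gene spot was saturated on any array. Groups follow the sample labels, 3 rats each, whose number limits the precision. The NP signal of Ifnk was bounded by the lowest signal well above background.

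The text names all members, pathway genes with an unadjusted p under 0.05 (at most 8 of lowest p per comparison) and the 5 genes most correlated with Tlr3 and with Irf7. The members and lists were chosen with earlier results of these data known. Alternatives covered scaling, background, filter, variance model, label number, slide row, value table, the arrays of a single day and leaving out single arrays.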

Additional observations from a re-analysis of the deposited data

How the results depend on the processing

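The count of 1 member between the diets on each day and of 8 between the days held under other scalings, background, filters, variance models, the slide row and the value table, and 0 members reached an adjusted p under 0.05 in these fits. The slide row is partly tied to diet, since all NP arrays lay in row 1 and LP 6a, 7c, 6f and 7f in row 2. Label numbers are shared between groups, but the labels do not say what they mark, and not every pair of the same number deviated together, so the rats were taken as unpaired. Across days the correlations of deviations for the same diet and number were -0.0557 to 0.380, although 10 of 12 arrays correlated best with their own number, a hint from the data and not from the design, and between diets they were 0.0886 to 0.131. With the number as a fixed replicate block, the diet differences rested on rats whose number occurs in both diets. At d28 these were NP 4f, NP 6f, LP 4f and LP 6f. NP 5f and LP 7f, both among the rats with high members, did not enter, so this fit does not test the difference over all rats of that day. Each dam received 1 diet, so NP and LP rats of the same number cannot share a litter. With this block the member count at d28 was 0 (Tlr3 0.88, unadjusted p of 0.0763 in limma) and the count for the change of the diet difference was 1. For the mean of both days it was 2 with this block, with quantile normalisation, with probes well above background on all 12 arrays and with a trended robust variance. The pathway count between diets at d28 was 5 with quantile normalisation. The shares of all probes under these settings were not computed, so the counts that moved cannot be set against the array.

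Leaving out single arrays gave member counts of 0 to 1 at d21, 1 to 5 at d28, 7 to 9 between days, 0 to 4 for the change of the diet difference and 1 to 2 for the mean of both days. Pathway counts were then 1 to 11 at d21, 1 to 23 at d28 and 37 to 58 between days. Of all probes, 2.08% to 8.63% had an unadjusted p under 0.05 at d21, 3.80% to 14.8% at d28 and 14.8% to 21% between days. For the change of the diet difference this share was 1.66% to 3.71%, and for the mean of both days 7.46% to 16.8%. The lowest d21 pathway count of 1 was that without NP 4a, NP 6a or LP 6a, and it was 11 without LP 4a and 7 without LP 7c. The shares of all probes in these fits were, in this order, 2.93%, 2.66%, 2.08%, 8.46% and 8.63%. At d28 the pathway count was 23 without LP 6f, 16 without NP 5f, 8 without LP 6a, 6 without NP 6f and 1 without LP 7f. Here the shares of all probes were, in the same order, 8.16%, 7.75%, 11%, 14.8% and 3.80%. Without LP 6f, Irf7 (2.55), Mx2 (1.13) and 11 pathway genes were called between the days at an adjusted p under 0.05 in limma. The share of all probes called at that level in that fit was not computed. Differences that turned sign were those of Mx2 at d21 with the slide row (0.15) and the replicate block (0.12), and with single arrays left out those of Mx2 (-0.21 to 0.13) and Oas1a (-0.34 to 0.49) at d21 and of Ifih1 (-0.19 to 0.55), Stat2 (-0.09 to 0.67), Mx1 (-0.14 to 1.10) and Mx2 (-0.06 to 0.73) at d28. The causes were not tested. The alternatives for the change of the diet difference, for the mean of both days and for pathway counts without single arrays were added after the values were seen.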

Other observations

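The genes given here are no members and were picked after their values were seen, and no test of their order over the rats is given. Bst2, an interferon-induced membrane protein that tethers viruses, was -2.22 in NP 6a and 1.61 to 2.15 on the other 5 d21 arrays, and between 2.08 and 3.76 on the 6 d28 arrays. In NP 6a, Irf7 (0.02) and Stat2 (1.51) lay within the range of the other d21 arrays. The fitted day difference of Bst2 was 1.58 (SE 0.68, adjusted p of 0.242 in limma), and it was not computed without NP 6a.

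At d28, NP 5f, LP 4f and LP 7f were also the 3 highest rats for 3 further genes of the response. Ifit3 was -0.90, -0.89 and -0.40 in these rats and -3.78, -3.59 and -4.65 in NP 4f, NP 6f and LP 6f. Usp18, which restrains signalling at the interferon receptor, was 0.77, 0.71 and 1.46 against -1.02, -0.70 and -1.38. Cxcl10, a chemokine that attracts T cells, was 2.13 in NP 5f and 0.34 in LP 4f, and at most -1.08 in the other 3 rats.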
